A study of Mus musculus with 43 samples.

Results

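Skeletal muscle of mice that lack the insulin receptor substrate Irs1 and of their wild type controls was compared after both had been kept on dietary restriction (DR). The comparison holds every entry of the deposited expression table that had a valid estimate in both groups and an FPKM (fragments per kilobase of transcript scaled to the mapped fragments of the library) of at least 1 in one of them, which left 14021 of 42349 entries. It rests on 6 of the 43 libraries of the series, 3 labelled KO DR and 3 labelled WT DR. All mice were females of 15 months, and the restricted groups had received 30% less food for 12 months, while mice fed ad libitum (AL) gave 3 libraries labelled KO AL and 2 labelled WT AL. The knockout is global, so every tissue of a KO mouse carries it, and the WT groups carry no engineered allele. Cuffdiff gave 1 pooled FPKM per entry and group with a 95% confidence interval. The methods of the study give as many mice as libraries for each of these groups. Values of single mice were not used here, and the depth of each library is unknown. The spread behind each test is therefore that of the authors' interval, and the median SD was 33.8% of the FPKM in WT DR and 34.1% in KO DR. Differences are log2 ratios, KO DR over WT DR, with a standard error (SE) from the intervals, a two-sided Wald test and Benjamini-Hochberg adjustment over all tested entries, and genes are called at a false discovery rate (FDR) of 10%. No p-value of a single gene is printed, since a normal reference is an approximation with 3 libraries in a group.

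Irs1 is the adaptor that carries the signal of the insulin and IGF-1 receptors to the PI3-kinase and Akt pathway. Muscle takes up much of the glucose that insulin clears from the blood, and its tissue mixes fast and slow fibres with fat cells, nerve, vessels and blood. In a bulk sample fewer cells of a type and less RNA per cell cannot be told apart.

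The deleted gene does not separate the groups. Irs1 (chromosome 1, 82233101 to 82291416, GRCm38) had an FPKM of 5.48 (95% interval 4.09 to 6.88) in the group labelled WT DR and 5.82 (3.65 to 7.99) in the group labelled KO DR. Under AL feeding the values were 5.72 (2.96 to 8.49) and 6.31 (4.30 to 8.31). All 4 intervals overlapped, and the log2 difference under DR was 0.09 (SE 0.33). In brain Irs1 was called higher in the group labelled KO DR, with a log2 difference of 1.35. A single value per gene does not show which part of the transcript was read, so it neither checks nor replaces the labels, and each direction below is that between the groups labelled KO DR and WT DR.

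At the FDR of 10%, 313 entries were called, 124 up-regulated and 189 down-regulated in the group labelled KO DR. That is 2.23% of the entries tested, 0.884% upwards and 1.35% downwards. At an unadjusted p under 0.05 there were 814. The normal reference of the test treats each interval as known. A t distribution with the 4 degrees of freedom that 3 and 3 libraries leave gave 10 calls, so every count below depends on this choice. The median log2 difference of all tested entries was 0.04. Of the called entries, 112 of the 189 down-regulated entries followed liver and 37 of the 124 up-regulated entries followed fat, as set out below.

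**Figure D1:**
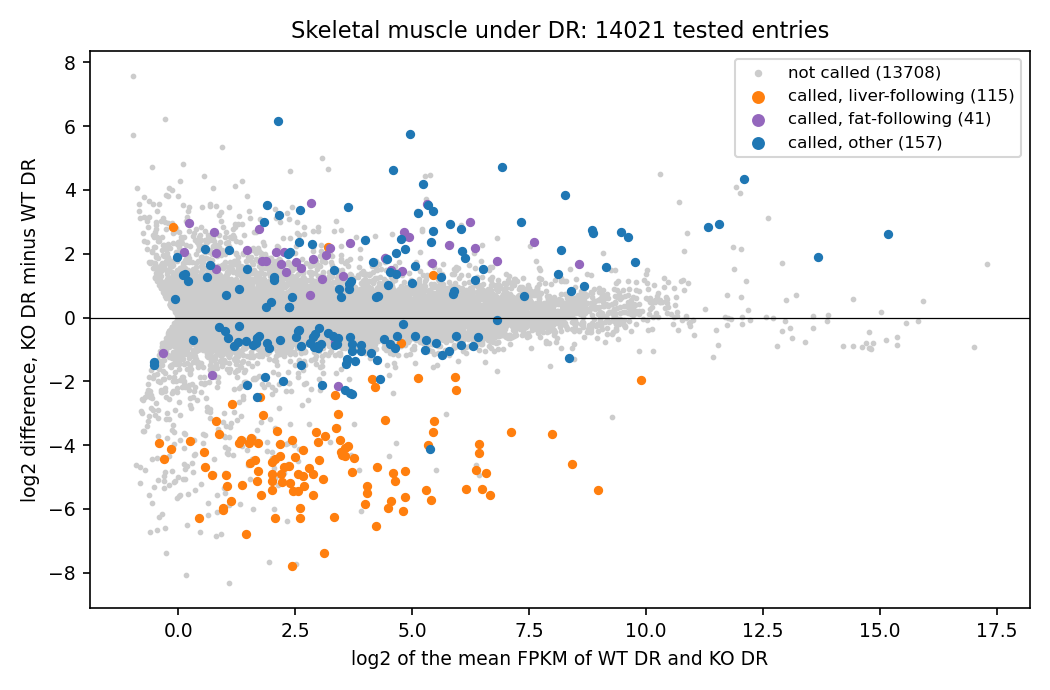
Each point is 1 of the 14021 tested entries, with the log2 of its mean FPKM on the x axis and its log2 difference (KO DR minus WT DR) on the y axis. The 115 called liver-following entries lie almost all below 0, down to -7.78, the 41 called fat-following entries mostly above 0, and the other 157 called entries on both sides.

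The liver list had the largest median difference of the 29 gene lists, and its transcripts were high in the group labelled WT DR. Over 28 liver genes with an FPKM of at least 100 in WT DR liver, the WT DR muscle value was a median 1.92% of the liver value, with a range from 0.793% to 3.05%. The same median was 0.0820% in KO DR, 0.0345% in WT AL and 0.0336% in KO AL muscle. The summed FPKM of the liver list was 3909 in WT DR muscle, against 331 in KO DR, 187 in KO AL and 82.7 in WT AL. A gene was therefore set apart as liver-following where 1.92% of its WT DR liver FPKM reached 50% of its WT DR muscle FPKM. This took 433 of the tested entries, of which 112 were called lower and 3 higher, Cdo1, Krt18 and Pllp, which are named after their values were seen. The class is built on the WT DR muscle value, so the direction of its members follows in part from the rule and is given as a description. On either side of the limit were Serpina1e, for which 1.92% of the liver FPKM equals 51.2% of the WT DR muscle value, and Hrsp12, with 49.2%, which stayed outside. This figure is a ratio and not a measured part, as it can exceed 100% (110% for Alb).

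Alb, the main plasma protein, had an FPKM of 987 (295 to 1680) in WT DR and 23.3 (7.19 to 39.3) in KO DR muscle. In the AL groups it was 5.52 in WT and 13.6 in KO, so WT DR alone stood high. Apoa1, the main protein of high density lipoprotein, had 653 (430 to 876) in WT DR and 27.3 (3.15 to 51.4) in KO DR. Apoa2 went from 471 to 37.4, Apoc1 from 254 to 21.4, and Fabp1, the fatty acid binding protein of hepatocytes, from 184 to 6.30. Serpina1a and Serpina1c, near-identical antitrypsin genes whose reads may have been split wrongly, went from 175 to 4.23 and from 200 to 4.20. Apoe was the most abundant of the class, at 1514 (1068 to 1960) and 389 (201 to 577), and it is also made in fat and macrophages. Of the 28 tested genes of the liver list, 20 were called lower and 27 had a negative difference, with a median of -4.51. The exception was Cyp2e1, a cytochrome P450 that fat cells also express, at 102 in WT DR and 146 in KO DR (log2 difference 0.52, SE 0.66). Why these transcripts differed between the muscle groups, and whether they came from liver, was not tested.

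**Figure D2:**
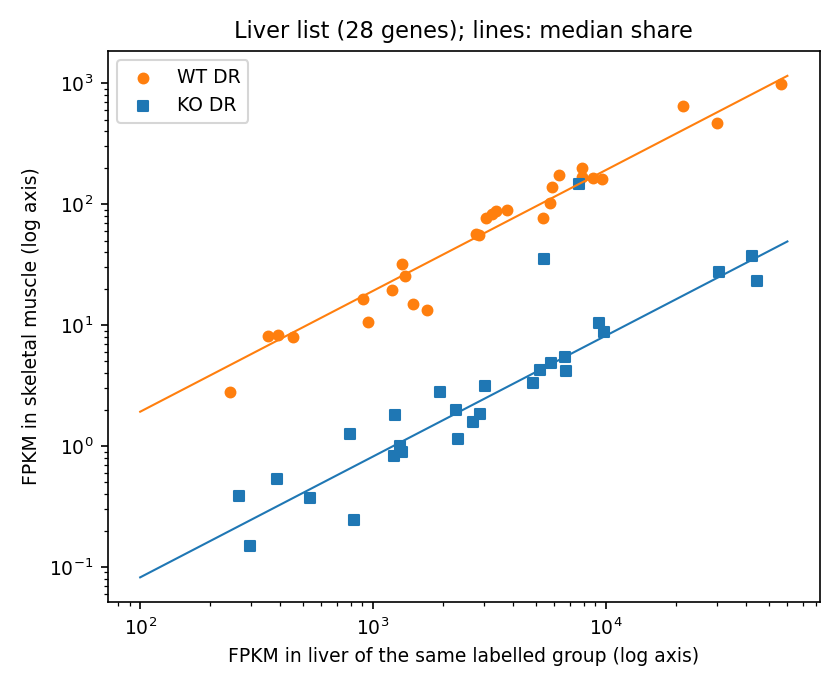
FPKM of 28 liver genes in muscle (y axis, log) against their FPKM in liver of the same labelled group (x axis, log), circles for WT DR and squares for KO DR. The lines mark the median share, 1.92% of liver in WT DR and 0.0820% in KO DR, and the WT DR points lie along theirs across the whole range of liver levels. The KO DR squares far above their line are Cyp2e1 and Rbp4.

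Outside the liver-following class 121 entries were called higher and 77 lower among 13588 tested. Fat cell genes are described first. All 15 tested members of the adipocyte list had a positive difference in the group labelled KO DR, 6 of them were called, and the median was 2.30. The lowest was 0.65 and the highest 3.46. The fat droplet coat protein Plin1 had an FPKM of 17.0 (4.57 to 29.5) in WT DR and 134 (95.3 to 173) in KO DR, and its AL values of 57.7 in WT and 91.0 in KO lay between them. This is a log2 difference of 2.98 (SE 0.57), and the DR intervals did not overlap. Cfd, the adipokine adipsin, rose from 233 (111 to 355) to 1341 (656 to 2026), or 5.76-fold. Retn, which encodes resistin, rose from 9.18 (3.53 to 14.8) to 52.3 (25.2 to 79.4). Pparg, the master transcription factor of fat cells, rose from 4.22 (1.26 to 7.17) to 21.3 (9.50 to 33.2). Adipoq, the gene of adiponectin, passed the test with 62.9 (24.9 to 101) and 326 (91.4 to 561), intervals that overlap. Cidea, a lipid droplet protein typical of brown and beige fat, rose from 2.07 (0 to 4.88) to 22.8 (12.2 to 33.4), a log2 difference of 3.46 (SE 1.04). Fabp4, the fatty acid binding protein of fat cells, had 242 (141 to 342) and 617 (170 to 1065) and was not called, and neither was Car3, the most abundant of the list, which had the smallest difference.

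For most of these fat genes WT DR was the low group, and Cidea was low in both WT groups. Over the 16 genes of the list the muscle FPKM was a median 14.1% of that in inguinal white adipose tissue (WAT) in KO DR, 11.7% in WT AL and 10.1% in KO AL, and 3.46% in WT DR. In WAT itself Plin1 had a log2 difference of -0.23 and Adipoq of -0.61, and neither was called. Entries were termed fat-following where 14.1% of the KO DR WAT value reached 50% of the KO DR muscle value, a limit chosen after the values were seen. They numbered 1380 of the tested entries, with 37 called higher, 4 called lower and a median of 0.48. That is 2.97% called, against 2.23% of all tested entries. The class is built on the KO DR muscle value, so the direction of its members is not independent of the rule and is given as a description. Of the called list members Plin1, Retn, Pparg and Adipoq were among the 37, while Cfd and Cidea fell outside the class. The 37 also included genes of lipolysis, Lipe (29.7 and 134, hormone-sensitive lipase) and Pnpla2 (181 and 577, adipose triglyceride lipase). Others were Pck1 (50.5 and 174), which feeds glycerol synthesis, and Cebpa (12.3 and 34.8), the factor that acts with Pparg in fat cell differentiation. How many fat cells each dissected muscle held was not measured.

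The promoter of Plin1 is shown because among the called genes of the adipocyte list this one had the largest ratio of difference to SE. RefSeq (GRCm38.p6) places the window, 250 bases before to 50 after the start, at chr7:79732727-79733026 on the minus strand. It holds 2 matches to the letters TTNNGCAA, an 8-letter form of the site bound by C/EBP factors, searched on both strands. The capitals mark these matches, which on the strand printed read as the reverse complement.
Plin1: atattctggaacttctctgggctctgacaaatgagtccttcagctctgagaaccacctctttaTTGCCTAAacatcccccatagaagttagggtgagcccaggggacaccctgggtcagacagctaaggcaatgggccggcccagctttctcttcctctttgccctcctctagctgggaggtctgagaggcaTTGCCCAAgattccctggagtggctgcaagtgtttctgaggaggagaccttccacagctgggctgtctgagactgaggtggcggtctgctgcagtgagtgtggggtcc
The 6 called genes of the list have 7 windows in the RefSeq table, none of them for Cidea. Besides Plin1, 1 of the 3 windows of Pparg held the letters, and the single windows of Adipoq, Retn and Cfd did not. Of all 32851 promoter windows, 10.8% held at least 1 match.

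Of the 11 tested members of the nerve and myelin list 4 were called, all higher in the group labelled KO DR, and the other 7 did not pass the test. All 11 differences were positive, with a median of 2.82. Mbp, myelin basic protein, had 6.46 (1.89 to 11.0) in WT DR and 74.7 (28.8 to 121) in KO DR, and under AL it had 36.4 (14.3 to 58.5) in WT and 25.4 (10.2 to 40.6) in KO. Its log2 difference was 3.53 (SE 0.68), and WT DR was again the low group. Prx, periaxin of the Schwann cell sheath, had 1.06 (0.191 to 1.94) and 11.1 (5.46 to 16.7), and Pmp22, another myelin protein, had 14.1 (8.87 to 19.3) and 36.3 (19.8 to 52.8). The summed FPKM of the list was 37.9 in WT DR, 107 in KO AL, 117 in WT AL and 233 in KO DR, with none of its genes at 0 in either DR group. Calca, the neuropeptide CGRP of sensory and motor neurons, had 0.122 (0 to 0.417) in WT DR and 8.73 (0.391 to 17.1) in KO DR and was called. It was chosen after its values were seen.

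Red blood cell transcripts were higher in both groups labelled KO. Of 7 tested members of the red blood cell list all had a positive difference in the group labelled KO DR, 3 were called and the median was 3.53. Hbb-bt, a beta globin, had 188 (108 to 269) in WT DR and 1221 (32.7 to 2409) in KO DR, and 113 and 963 in WT AL and KO AL. Hba-a1, an alpha globin, had 407 (228 to 587) and 8347 (0 to 23382), a log2 difference of 4.36 (SE 1.34). The interval of the KO DR value reaches 0 and takes in the WT DR value. The near-identical Hba-a2 (438 and 7395) and Hbb-bs (516 and 3247) and the heme synthesis gene Alas2 (3.41 and 74.1) were not called. The KO AL values of Hba-a2 and Alas2 were 4083 and 49.1, so both groups labelled KO were high. The division of reads between the globin copies is uncertain. With liver- and fat-following entries, small RNAs and the members of the fat, blood and nerve lists set aside, 48 of the entries called higher and 67 of those called lower were left among 12077, with the p-values still adjusted over all 14021. The part of these tissues in the differences of other genes was not tested.

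**Figure D3:**
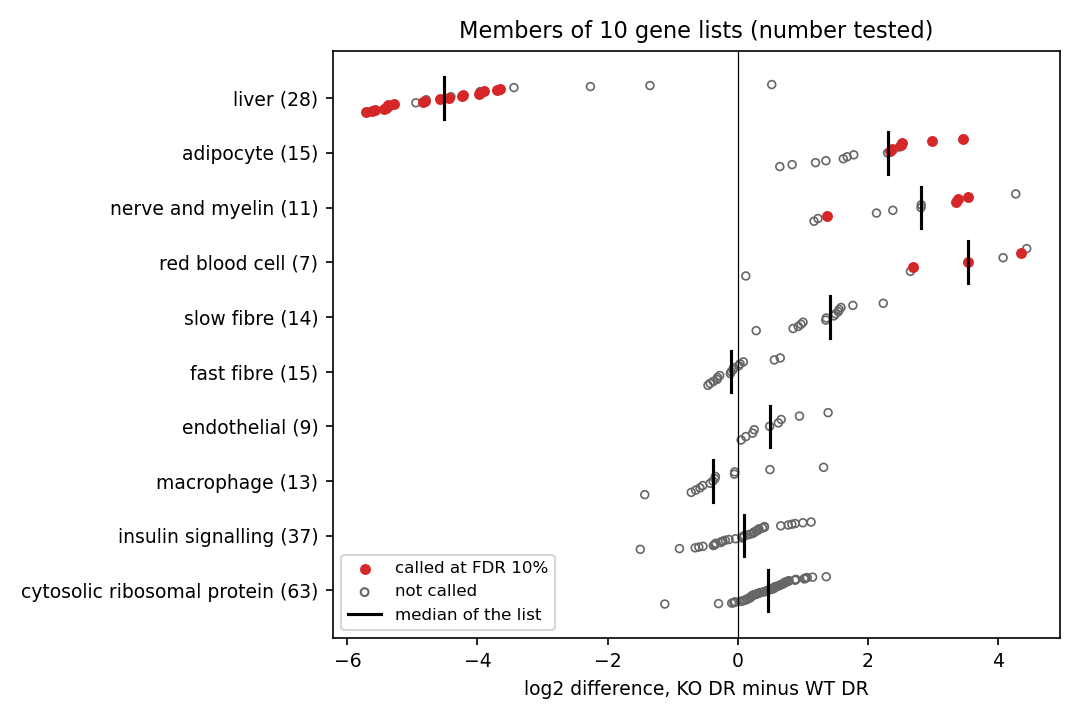
Log2 differences (KO DR minus WT DR, x axis) of the tested members of 10 gene lists, filled red where called at the FDR of 10% and open where not, with a bar at each median. The adipocyte, nerve, red blood cell, slow fibre and endothelial lists lie wholly above 0, at medians of 2.30, 2.82, 3.53, 1.42 and 0.49. The fast fibre list straddles 0.

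The contractile genes of the muscle fibres did not pass the test, with 2.23% of all tested entries called. In the group labelled KO DR all 14 tested genes of the slow fibre list had a positive difference, from 0.28 to 2.24 with a median of 1.42, and 0 were called. Myl3, the ventricular and slow skeletal myosin light chain, had 64.2 (0 to 141) in WT DR and 302 (148 to 456) in KO DR, the largest difference (2.24, SE 0.94). Myh7, the slow myosin heavy chain, had 32.6 (8.16 to 57.0) and 83.6 (24.2 to 143), and Lmod2 had the smallest difference, at 64.4 and 78.3. The sum over the list was 557 in WT DR against 1553 in KO DR, 1730 in WT AL and 1930 in KO AL. The 15 fast fibre genes had a median of -0.10 and ran from -0.46 (Atp2a1, the fast calcium pump) to 0.65 (Myh2), with 0 called. Mylpf, the fast regulatory light chain and the most abundant of them, had 59815 (5051 to 114579) and 55250 (0 to 131064). The skeletal muscle list as a whole had a median of -0.07 over 21 genes, 0 called, and its summed FPKM of 262091 in WT DR and 245084 in KO DR puts these markers high in both groups. Which muscle was dissected is not stated in the labels.

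A few regulators of growth and stress rose in the group labelled KO DR. On the stress and p53 target list 3 of 23 tested genes were called, all higher, with a list median of 0.08, and on the atrophy and growth control list 2 of 28, both higher, with a median of 0.12. Cdkn1a encodes p21, a brake on the cell cycle, and had 16.4 (13.1 to 19.6) in WT DR and 50.4 (29.4 to 71.5) in KO DR. Its log2 difference was 1.62 (SE 0.33), and in the AL groups, which share no library with these, it was 1.70 (SE 0.37). Its AL values were 16.7 in WT and 54.1 in KO, so the groups paired by genotype and not by diet. Ddit4, an inhibitor of the growth kinase mTORC1, had 5.01 (1.79 to 8.24) and 26.8 (11.7 to 42.0). Eif4ebp1, the translation repressor that mTORC1 inactivates, had 47.4 (25.9 to 69.0) and 135 (70.4 to 200). Other members gave no call, among them the ubiquitin ligases of muscle wasting, Trim63 (143 and 111) and Fbxo32 (64.5 and 45.9), and the growth inhibitor Mstn (28.1 and 34.0). Gclc, which makes the first step of glutathione synthesis, was the lowest of the stress list at -1.44 (SE 0.53).

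Mt1, a metallothionein that binds zinc and copper, had 13.7 (3.43 to 24.0) in WT DR and 70.7 (31.6 to 110) in KO DR, and 16.5 and 79.6 in WT AL and KO AL. It was called in both diets (log2 differences 2.37, SE 0.67, and 2.27, SE 0.45). Its neighbour Mt2 had 21.4 (7.19 to 35.6) and 35.3 (16.7 to 54.0), a difference of 0.73 (SE 0.61) that was not called. The difference between the 2 genes was not tested. At the liver share of 1.92%, the liver FPKM of Mt1 comes to 48.6% of its WT DR muscle value, just below the limit of the liver-following class. With this liver part subtracted its log2 difference was 3.31 and it was no longer called. Their promoters are shown because the pair lies side by side. The letters TGCACNC and TGCGCNC, the core of the metal response element, were searched on both strands and are in capitals in the RefSeq windows chr8:94178839-94179138 and chr8:94172368-94172667, both on the plus strand of GRCm38.p6. No match overlaps another.
Mt1: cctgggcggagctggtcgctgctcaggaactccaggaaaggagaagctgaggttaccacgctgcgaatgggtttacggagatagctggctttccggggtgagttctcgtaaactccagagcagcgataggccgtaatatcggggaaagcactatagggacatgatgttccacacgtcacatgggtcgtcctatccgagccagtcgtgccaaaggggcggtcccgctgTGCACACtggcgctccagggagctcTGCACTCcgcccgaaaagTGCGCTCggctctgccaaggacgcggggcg
Mt2: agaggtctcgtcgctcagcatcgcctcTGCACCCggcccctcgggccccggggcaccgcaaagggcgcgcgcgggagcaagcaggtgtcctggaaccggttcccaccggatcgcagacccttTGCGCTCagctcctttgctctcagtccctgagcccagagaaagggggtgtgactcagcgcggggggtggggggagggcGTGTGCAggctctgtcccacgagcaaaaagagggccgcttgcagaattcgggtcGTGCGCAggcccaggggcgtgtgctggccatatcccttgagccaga
Mt1 holds 3 matches and Mt2 holds 4, and 25.7% of all promoter windows hold at least 1.

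Further single genes rose in the group labelled KO DR, of which Cebpd, Lpin1 and Igha were chosen after their values were seen. Cebpd, a C/EBP factor, had 25.5 (12.9 to 38.1) in WT DR and 109 (66.6 to 152) in the group labelled KO DR, a log2 difference of 2.10 (SE 0.45), with 156 and 157 in the AL groups. Fkbp5, a co-chaperone of the glucocorticoid receptor and the only call among 27 tested chaperone genes, had 8.06 (5.71 to 10.4) and 17.8 (11.6 to 24.1), below 31.2 and 29.9 in WT AL and KO AL. Lpin1, a phosphatidate phosphatase and coregulator of fat oxidation genes, had 42.6 (38.0 to 47.1) and 76.0 (62.5 to 89.5). For these 3 the KO DR value lay between the WT DR value and those of the AL groups. Serpina3c was the only call of 19 genes of the acute phase and interferon list, at 1.66 (0.432 to 2.89) and 6.91 (3.09 to 10.7), and it was fat-following. Under AL it was called in the opposite direction, at 7.47 in WT and 2.52 in KO. An immunoglobulin kappa variable segment, Igkv3-2, had 6.25 (1.59 to 10.9) and 73.7 (36.4 to 111). It was fat-following too and was called higher in WAT of the group labelled KO DR, at 40.8 and 700.1, while 0 of 9 tested genes of the B cell and antibody list were called (median 1.00). Ighm, the constant region of IgM, had 147 and 153. Igha, the constant region of IgA, is not on that list. It was fat-following and called higher, at 0.458 (0.0709 to 0.844) in WT DR and 2.96 (1.86 to 4.07) in KO DR.

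The 77 down-regulated entries outside the liver-following class are given next. Their median log2 difference under DR was -0.85. Nrep, a neuronal regeneration related gene, had 31.4 (21.8 to 41.0) in WT DR and 8.36 (6.44 to 10.3) in the group labelled KO DR, a log2 difference of -1.91 (SE 0.28). It had 6.63 in WT AL and 9.92 in KO AL, so here WT DR was the high group. Dkk3, a secreted relative of Wnt inhibitors, was also highest in WT DR, with 13.7 (7.82 to 19.5) there and 3.14 (1.45 to 4.84) in KO DR, against 3.62 and 4.33 in WT AL and KO AL. Atp1b4, a muscle gene of the Na,K-ATPase beta subunit family, had 4.50 (2.70 to 6.30) and 1.04 (0.394 to 1.70). The potassium channel subunit Kcng4 had 7.57 (4.91 to 10.2) and 1.91 (0.802 to 3.01), and Gdap1, a protein of the mitochondrial outer membrane, had 5.65 (3.36 to 7.94) and 1.57 (0.513 to 2.63). Hrsp12 went from 22.2 (9.56 to 34.8) to 4.25 (1.16 to 7.34), and its WT DR value is close to the liver limit.

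Further single genes fell. The skeletal muscle and fast fibre lists had no call, and most of the genes that follow were picked from the 77 with their values known. Mef2c, a transcription factor of muscle differentiation, had 85.8 (59.1 to 112) in WT DR and 47.1 (37.6 to 56.7) in the group labelled KO DR. Cfl2, the muscle cofilin that trims actin filaments, had 104 (88.2 to 119) and 67.6 (55.0 to 80.2), a log2 difference of -0.62 (SE 0.17). Jph1, junctophilin 1, which ties the sarcoplasmic reticulum to the surface membrane tubules, had 73.2 (61.3 to 85.1) and 48.8 (42.0 to 55.6). Ano5, a membrane protein mutated in limb-girdle muscular dystrophy, had 19.3 (15.2 to 23.4) and 10.8 (7.98 to 13.5), and the inward rectifier channel Kcnj2 had 10.5 (8.73 to 12.3) and 5.41 (4.26 to 6.55). Jph1, Ano5, Kcnj2 and the membrane proteins Smco1 (33.0 and 17.1) and Itm2a (69.5 and 30.8) were chosen after their values were seen. Lum, the keratan sulphate proteoglycan lumican, was the only call of 37 genes of the collagen and matrix list, at 12.7 (11.4 to 14.1) and 7.55 (6.49 to 8.60). It was also called lower in WAT of the group labelled KO DR, with a log2 difference of -0.76 in each tissue. Pdp2, a phosphatase that activates pyruvate dehydrogenase, was called higher under AL, at 2.03 in WT and 3.91 in KO. Under DR it had 2.70 (2.57 to 2.83) and 2.23 (2.03 to 2.42), and was called lower on the fatty acid oxidation list. These calls depend on small intervals. With the SD of each group set to at least 20% of its FPKM, a choice made after the values were seen, 15 of the 77 were called, and Mef2c, Cfl2, Jph1, Ano5, Kcnj2, Smco1, Itm2a, Lum and Pdp2 were among those lost.

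**Figure D4:**
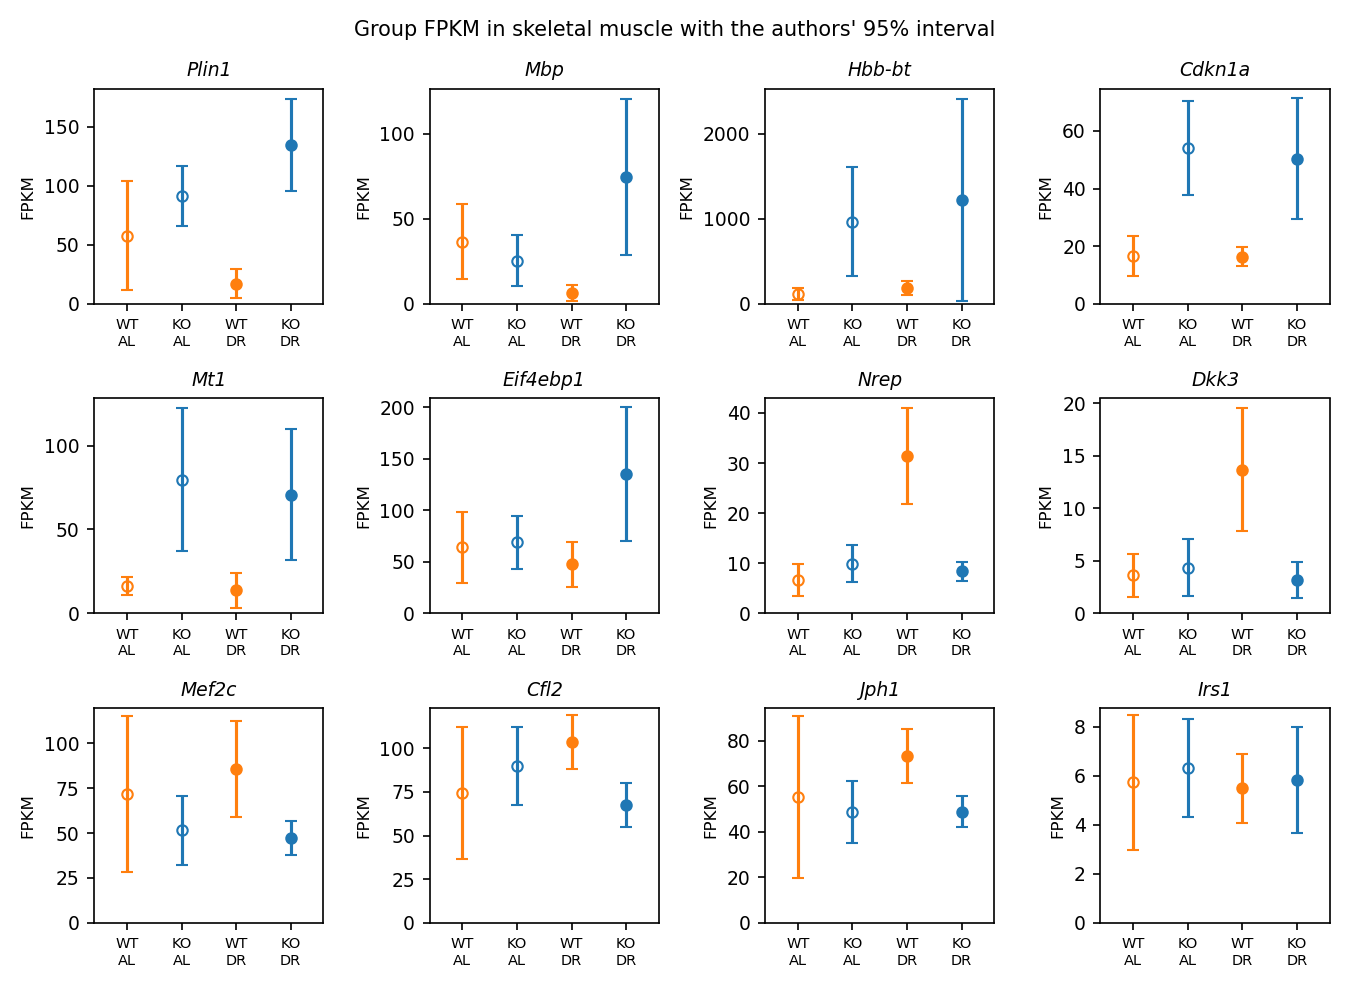
FPKM of 12 genes in the 4 muscle groups, orange for WT and blue for KO, open for AL and filled for DR, with the authors' 95% interval as bars and each y axis starting at 0. Plin1 and Mbp are lowest and Nrep and Dkk3 highest in WT DR, Cdkn1a and Mt1 are higher in both KO groups, and the 4 values of Irs1 overlap.

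The insulin signalling list gave no call. With 2.23% called among all tested entries, 0 calls is not a result about a list of this size. Of its 37 tested genes 0 were called, 22 had a positive and 15 a negative difference in the group labelled KO DR, and the median was 0.10. The substrate Irs2 had 8.23 in WT DR and 10.9 in KO DR (log2 difference 0.41, SE 0.46), the insulin receptor Insr 8.52 and 6.74, and the kinase Akt2 77.3 and 100. The glucose transporter Slc2a4 (GLUT4) had 196 and 233. The extremes were Tbc1d1, which holds back GLUT4 vesicles, at 32.5 (6.85 to 58.1) and 11.5 (0.690 to 22.3), and the pseudokinase Trib3 at 1.02 and 2.22. Irs3, a further insulin receptor substrate, was called higher, at 0.854 (0.00870 to 1.70) in WT DR and 5.81 (2.31 to 9.32) in KO DR, a log2 difference of 2.77 (SE 0.84). Sh2b2, an adaptor of the insulin receptor, was called as well, at 2.63 (0.935 to 4.33) and 8.82 (4.91 to 12.7). Both genes are fat-following, stand on none of the lists and were chosen after their values were seen.

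The lists of ribosomal, respiratory chain, glucose and lipid synthesis genes also gave no call. Beside the 2.23% called among all tested entries, 0 calls in lists this short is not a result about them. The 63 cytosolic ribosomal protein genes had a median of 0.46, with 57 positive differences and 0 called, and the summed FPKM was 12180 in WT DR and 17654 in KO DR. The 74 nuclear genes of the respiratory chain had a median of 0.03. The 6 mitochondrially encoded genes had a median of -0.85, with a sum of 127302 in WT DR and 69382 in KO DR and 0 called. Over 31 genes of glucose use the median was -0.03, over 22 of fatty acid synthesis 0.70, over 19 of sterol synthesis 0.32 and over 32 proteasome genes 0.10, each with 0 called. The 18 circadian genes had a median of 0.03 and the 23 immediate early genes 0.44, again with 0 called. Of 10 denervation genes, 8 satellite cell and myogenic genes, 9 endothelial, 13 macrophage and 7 MHC class II genes, 0 were called, with medians of 0.16, 0.11, 0.49, -0.38 and 0.10. Among lists with a call, fatty acid oxidation, with 2 of 32 called lower, had a median of 0.03, collagen and matrix -0.16, heat shock and chaperone 0.04, and acute phase and interferon 0.67.

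Under AL feeding, with libraries that the DR comparison does not use, 96 of 14102 tested entries were called (0.681%), 64 higher and 32 lower in the group labelled KO AL. The diets had 24 calls in common, which is 7.67% of the DR calls and 25% of the AL calls, 17 in the same direction and 7 in the opposite one. The shared genes higher in both diets included Cdkn1a, Mt1, Hbb-bt, Hba-a1 and Cidea. All 7 of opposite direction are named here. Serpina3c, Smoc1 and the joined entry of Mir700 and Rcan3 were higher under DR and lower under AL. Pdp2, Fitm2, Hist1h4i and Gm20721 were lower under DR and higher under AL. Cidea under AL had 2.16 (0 to 5.37) in WT and 79.1 (45.3 to 113) in KO, and the latter lies above the 22.8 of KO DR. Hoxd9, a positional homeobox gene, had 7.55 and 14.01 in the DR groups and 6.88 and 12.6 in the AL groups. Of 104 entries called higher outside the liver-following class and tested under AL, 77 had the same sign there, with a median AL difference of 0.55. The median DR difference over all 121 called higher was 1.91. Of 72 called lower and tested under AL, 47 had the same sign, with a median AL difference of -0.16. Over all 77 called lower the median DR difference was -0.85. The share of same signs over all tested entries is not given here. The sign counts therefore have no background and only describe the called entries. WT DR was the lowest of the 4 groups for 87 of the 121 entries called higher and the highest for 63 of the 77 called lower, a description of entries chosen for this contrast.

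Subtracting the AL difference between genotypes from the DR difference gives the interaction, which was called for 48 of 13287 entries (0.361%), 28 higher and 20 lower, and 261 had an unadjusted p under 0.05. For 24 of the 28 the value was lower in KO AL than in WT AL and higher in KO DR than in WT DR, and WT DR was the lowest of the 4 groups for 26. The 28 were chosen by a difference built on these same 4 values. The pattern therefore follows in part from the choice and is given as a description. Lep, the satiety hormone leptin of fat cells, had 78.7 (28.1 to 129) in WT AL, 9.24 (4.88 to 13.6) in KO AL, 4.03 (1.48 to 6.58) in WT DR and 12.4 (3.31 to 21.5) in KO DR. WT AL stood above the rest, and the interaction was 4.71 (SE 0.91), while the DR difference of 1.62 alone was not called. Sfrp5 and Wisp2, secreted modulators of Wnt signalling from fat, had the same order of groups, and Sncg and Mbp had their lowest value in WT DR. On the negative side were the liver transcripts Alb, Apoa1, Apoa2 and Apoc1, and 10 of all 48 calls were liver-following. S100a9, a calcium-binding protein of neutrophils, stood apart in KO AL and not in the DR groups: it had 364 (64.4 to 663) in KO AL and 3.13 (0 to 7.86) in WT AL, while the DR groups had 13.9 and 17.3. Nrep had an interaction of -2.49 (SE 0.52).

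**Figure D5:**
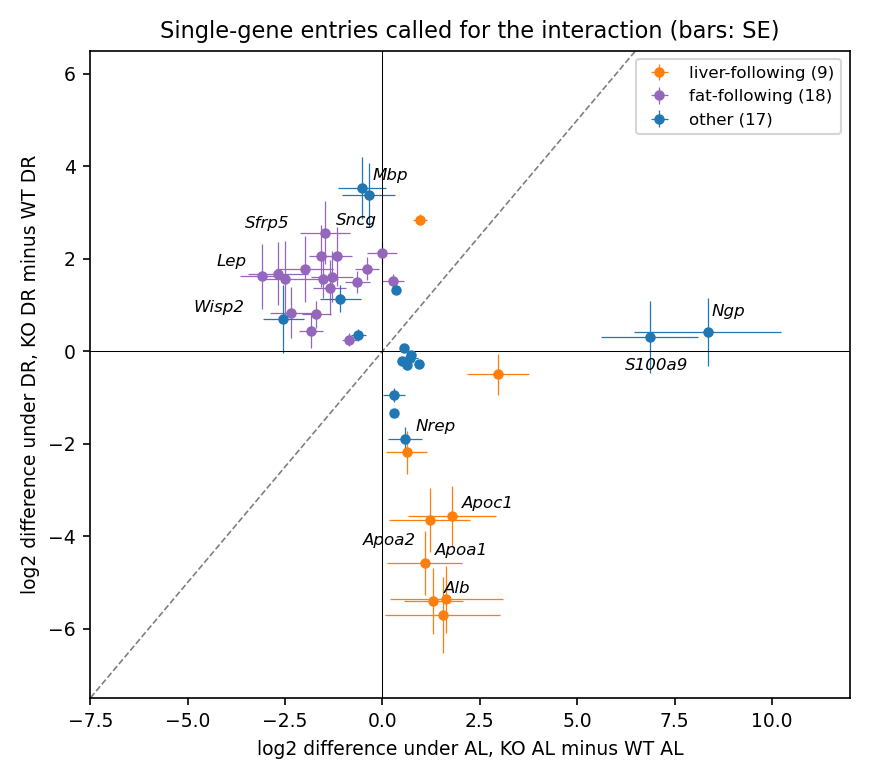
Genotype log2 difference under AL (x axis) against that under DR (y axis) for the 44 single-gene entries called for the interaction, with bars of 1 SE and a dashed line where both are equal. The 18 fat-following genes lie mostly at upper left, 8 of the 9 liver-following genes at lower right, and S100a9 and Ngp far to the right.

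The same labelled groups were compared in the other tissues. Under DR 39 of 13555 entries were called in liver (0.288%), 177 of 15262 in brain (1.16%) and 42 of 14820 in WAT (0.283%). Muscle shared 9 calls with liver (2.88% of the muscle and 23.1% of the liver calls), 15 with brain (4.79% and 8.47%) and 16 with WAT (5.11% and 38.1%). Of these 5, 8 and 11 had the same direction. Cdkn1a was higher in brain as well (6.72 and 29.9 in WT DR and KO DR), Lpin1 in liver (8.94 and 48.9), and Fkbp5 and Hoxd9 in WAT (2.66 and 18.02, 2.64 and 8.36). The albumin transcript Alb was lower in brain of KO DR, at 5.22 and 0.309. Kcng4 went the other way there, at 2.86 in WT DR and 20.0 in KO DR. Whether a difference is larger in muscle than in another tissue was not tested.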

How the data were processed

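Poly A selected RNA of female mouse tissue was sequenced on an Ion Proton. Per the methods of the study and the submitters' processing notes, reads were trimmed with cutadapt 1.5 and sickle, aligned to GRCm38 with BBMap and quantified with Cuffdiff 2.2.1. The authors deposited 1 table, with an FPKM per entry and group and the bounds of its 95% interval. The counting of strands is not given in the sources used here, so antisense and overlapping genes are uncertain. Groups were taken from the genotype, diet and tissue labels, and 0 columns belonged to other samples.

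From these FPKM values log2 ratios were computed for entries with status OK and at least 1 FPKM in a group. The SD was taken as the upper bound less the FPKM, divided by 2, and the SE followed by the delta method. A two-sided Wald test with a normal reference was adjusted by Benjamini-Hochberg over all tested entries and called at 10% (Python 3.11.15, numpy 2.4.6, pandas 2.3.3, scipy 1.17.1). The procedure was tested on simulated data. The interaction used all 4 muscle groups. Promoter windows came from RefSeq. The comparison, its members and the 29 gene lists were chosen with earlier results of these data known.

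Named genes are Irs1, called list members with the extremes and most abundant uncalled members of a list, the 12 largest called differences in each direction and the 5 most abundant calls outside the liver-following class, the 8 most abundant liver-following genes, and the 5 largest interactions in each direction. Other genes are named where said to be chosen after their values were seen, or stand as examples of a class, which was also chosen afterwards (Lipe, Pnpla2, Pck1, Cebpa, Alas2, Mt2, Hoxd9, Ngp, Rbp4, Myh7, Irs2, Insr, Mstn, Trim63, Fbxo32, Serpina1e). Alternatives were the FDR, the reference distribution, non-overlap of intervals, pseudocounts, filters, a fold limit, centring, joined entries, the SE and the subtraction of liver. A floor on the SD and the removal of whole classes were added after seeing the data. Some called list members are not reported here.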

Additional observations from a re-analysis of the deposited data

Results flagged for a closer look

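The genotype difference under DR was set against that under AL feeding for each gene, and the 10 genes with the largest called interactions and at least 1 FPKM in all 4 muscle groups are given here because the 2 diets differed by a test of the interaction itself. On the positive side the log2 interaction was 4.71 for the adipokine Lep (SE 0.91), 4.36 for Sfrp5 (SE 1.03), 4.08 for Wisp2 (SE 1.02), 4.05 for the myelin gene Mbp (SE 0.91) and 4.03 for Sncg (SE 0.94). In FPKM, Sfrp5 had 59.0 in WT AL, 9.21 in KO AL, 3.66 in WT DR and 11.7 in KO DR. Wisp2 had 13.96, 2.46, 1.09 and 3.23 in the same order, and Sncg had 52.3, 18.8, 8.45 and 49.7. All 5 were lowest in WT DR, which follows in part from their choice by the interaction.

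On the negative side the interaction was -6.71 for Alb (SE 1.04), -6.55 for the neutrophil gene S100a9 (SE 1.47), -5.66 for Apoa1 (SE 1.19), -5.36 for Apoc1 (SE 1.29) and -4.87 for Apoa2 (SE 1.25). Alb and the 3 apolipoprotein genes are liver-following, a class built on the WT DR muscle value. Their WT DR muscle value was 1.75% (Alb), 3.05% (Apoa1), 2.51% (Apoc1) and 1.57% (Apoa2) of that in WT DR liver. Alb, Apoa1 and Apoa2 are among the genes that set the liver share of 1.92%, so nearness to it is partly built in. The part of liver RNA in these 4 values was not tested.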

How the results depend on the processing

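The number of calls depended most on how the authors' intervals were read. Against 313 calls (124 higher, 189 lower, and 121 higher and 77 lower outside the liver-following class), a t distribution with 4 degrees of freedom gave 10 (7 and 3, and 6 and 3). Dividing the SD by the square root of the number of libraries gave 1505 (816 and 689, and 805 and 451), and an SD of at least 20% of the FPKM gave 185 (73 and 112, and 71 and 15). With the liver part subtracted 159 were called, 57 of them lower, and with a fold limit of 2 there were 27 lower outside the liver-following class. With liver- and fat-following entries removed before the adjustment 128 were called (68 higher, 60 lower), against 157 of the original calls outside these classes. With small RNAs and the fat, blood and nerve lists removed as well 86 were called (36 higher, 50 lower), since fewer entries with low p-values entered the adjustment. The interaction had 294 calls (166 higher, 128 lower) with the smaller SE and 30 (18 higher, 12 lower) with the floor on the SD. The smaller SE also gave 514 calls under AL, 358 in liver, 2826 in brain and 168 in WAT.

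Of 101 called named genes 96 lost their call with the t distribution, 30 under the floor on the SD, 15 where intervals had to be apart, 16 under the fold limit and 15 at an FDR of 5%. With the liver part subtracted 21 lost it and 19 more could not be tested. Among the 21, Mef2c (-0.86), Pmp22 (1.37) and Eif4ebp1 (1.54) kept nearly the same log2 difference, as fewer low p-values entered the adjustment. Those lost where intervals had to be apart included Adipoq, Hba-a1, Hbb-bt and Calca. Among uncalled genes 3 reversed, H2-Aa to 0.0045 and Rbp4 to 0.76 with liver subtracted and Pmvk to -0.025 when centred. No paired analysis was possible because the table holds 1 value per group. For the same reason no replicate could be left out, and depth sets no stated limit.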

Other observations

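Short non-coding RNAs took a large share of the calls outside the liver-following class. Of 111 tested single-gene entries of this kind 27 were called higher and 7 lower in the group labelled KO DR, against 2.23% called among all entries, and their median log2 difference was 1.15. Rny1, a Y RNA of the Ro ribonucleoprotein, had an FPKM of 40.1 in WT DR and 575 in KO DR, and Rny3 had 44.3 and 73.9. Of the called mitochondrial transfer RNAs 6 were higher and 1 was lower. Among the higher ones mt-Tg had 690 and 5321, mt-Tr had 627 and 4528, and mt-Ty had 108 and 474. The lower one, mt-Td, fell from 463 to 194. Snord118 fell from 51.6 to 25.8 and Snora24, a guide RNA for pseudouridylation, from 19.8 to 7.76. The libraries were made from poly A selected RNA, and what this does to the FPKM of such genes was not tested.

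Some calls had a narrow interval. Of 293 tested entries with an SD under 10% of the FPKM in a group 95 were called. Hist1h4i, a histone H4 gene, had 27.2 in WT DR and 10.7 in KO DR with an SE of 0.0038 on the log2 scale. It was called in the opposite direction under AL, at 13.3 in WT and 16.4 in KO, and under DR in liver, brain and WAT. Gm20721 had 117 and 110, a log2 difference of -0.08 with an SE of 0.0039. These entries, the short RNAs and Rny3, mt-Ty and Snord118 among them, were chosen after their values were seen.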
